A study of Mus musculus with 2 samples.

Results

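Transcripts for sodium pump subunits, sodium exchangers and cation-chloride cotransport were examined in tumour-infiltrating monocytic myeloid-derived suppressor cells (M-MDSCs), immature myeloid cells that restrain T cells in tumours. The 6 genes were Atp1b1, Atp1b3, Slc9a9, Slc8a1, Slc12a2 and Wnk1, of 20653 named genes on the array, and every probe matched to a RefSeq transcript of these genes was used. They had 8 probes, of which 7 were free of flagged spots on both arrays, among 39413 such probes in all. Female BABL/c mice were starved for 1 day and given a subcutaneous injection of 1000000 4T1 cells, a mouse mammary carcinoma line. Mice then received either a normal-salt diet (NSD), made up of chow containing 0.4% NaCl and tap water, or a high-salt diet (HSD), made up of chow containing 4% NaCl and drinking water containing 1%. After 16 days M-MDSCs were taken from the tumours with an isolation kit, and equal numbers of cells from the mice of a diet were pooled into 1 RNA sample. Each pool was hybridised to 1 Agilent one-colour array, so the NSD group and the HSD group have n = 1 each, no p-value can be given, and diet, pool and array cannot be told apart. The comparison asks how the transcripts for moving sodium differed between cells from tumours of the 2 diets.

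The sodium pump (Na,K-ATPase) exports sodium and imports potassium at the cost of ATP, and its catalytic alpha subunit needs a beta subunit to fold and to reach the plasma membrane. The sodium gradient that it builds drives other carriers. Sodium-proton exchangers take up sodium, or potassium in some organelles, to move protons, sodium-calcium exchangers use sodium entry to extrude calcium, and the cotransporter encoded by Slc12a2 (NKCC1) brings sodium, potassium and chloride into a cell that has to regain volume. WNK1 is a chloride-sensitive kinase that switches on NKCC1 through the kinases SPAK and OSR1. These proteins keep cell volume and internal sodium when the surroundings become hypertonic, and much of this control acts on the protein rather than on the transcript.

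Upstream sequences are shown for the member with the largest difference between the diets, Slc9a9, and for Atp1b1, the member with the largest difference in the other direction. They come from RefSeq on build GRCm38.p6 and cover the 250 bases before the annotated start of each gene, on the plus strand of chromosome 9 for Slc9a9 (chr9:94669642-94669891) and on the minus strand of chromosome 1 for Atp1b1 (chr1:164458356-164458605). Capitals mark matches, on either strand, to TGGAAA, the core bound by NFAT proteins including the osmosensitive NFAT5, to the GC box GGGCGG, to CCAAT and to the E-box CACGTG.
Slc9a9: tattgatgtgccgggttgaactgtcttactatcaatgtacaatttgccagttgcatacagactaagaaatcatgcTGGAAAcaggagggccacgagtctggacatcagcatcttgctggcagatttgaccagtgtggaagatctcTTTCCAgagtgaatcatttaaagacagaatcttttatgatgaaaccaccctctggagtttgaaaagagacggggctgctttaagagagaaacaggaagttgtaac
Atp1b1: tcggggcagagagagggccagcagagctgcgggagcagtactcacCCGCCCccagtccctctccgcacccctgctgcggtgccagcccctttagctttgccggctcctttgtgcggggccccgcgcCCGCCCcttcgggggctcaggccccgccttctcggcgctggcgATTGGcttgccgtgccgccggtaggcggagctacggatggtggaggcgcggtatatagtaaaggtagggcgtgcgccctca
The Slc9a9 window holds 2 matches to TGGAAA and none to the other motifs. The Atp1b1 window holds 2 GC boxes and 1 CCAAT match, with no TGGAAA. Of 32851 windows of the same length, 18.6% hold TGGAAA, 32.7% the GC box, 33.8% CCAAT and 6.02% CACGTG. The G and C content was 42.8% for Slc9a9 and 70.4% for Atp1b1. A match describes the letters in these windows, and binding of a factor was not measured. No probe sequences were used here.

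The beta subunits of the sodium pump come first. Atp1b1, which encodes the beta subunit found in most tissues, had a processed signal of 142 ± 14.2 intensity units with NSD and 168 ± 16.8 with HSD, where the error is the one the extraction software gives for a single spot. A log2 fold change here is the difference, HSD minus NSD, of log2 signals each taken relative to the 75th percentile of its array. For Atp1b1 it was 0.36, a fold change of 1.28, against a software error of 0.20 and a spread of 0.13 between replicate spots of probes at like signal. The HSD value was thus the higher by less than 1.5-fold, the threshold used here for a difference.

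Atp1b3, which encodes another beta subunit and is found on leukocytes, had 1 probe, with a signal of 2570.2 ± 257 for NSD and 1706 ± 171 for HSD. The HSD spot was marked by the software as non-uniform, so its value was left out of the fold changes and counts. The median pixel signal of that spot was 1281, against 2364 for the uniform NSD spot. If the marked spot is used, the HSD signal is 1.39-fold lower (log2 fold change −0.48), and in the deposited normalized values the difference is −0.57, both short of 1.5-fold. The direction for Atp1b3 therefore rests on a single doubtful spot.

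Slc9a9 encodes NHE9, a sodium-proton exchanger of endosomes. Its only probe gave 12.8 ± 1.64 intensity units with NSD, which was well above background, and 4.24 ± 1.27 with HSD, which was not. The lowest signals that counted as well above background were 4.61 for NSD and 4.39 for HSD. Taken against that HSD limit, the transcript was 2.69-fold lower with HSD (log2 fold change −1.43). This is treated as a bound because the HSD signal was below the limit, but it takes no account of the errors of the signals. The difference of the measured signals was −1.48, with a software error of 0.47 and a spread of 0.53 between replicate spots at like signal. Both signals were low, and the raw median signal was 31 over a local background of 17 with NSD and 20.5 over 18 with HSD. Of the 6 member probes with a fold change, this was the 1 past 1.5-fold, and of all 29628 probes that at least 1 array detected well above background, 19.1% were past it. Lower values of that size were 8.91% of all these probes, and 8.72% of the 7961 whose brighter signal was under 20. With the normexp background correction, which adds a constant of 50 to every signal, the Slc9a9 difference was −0.15.

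Slc8a1 encodes the sodium-calcium exchanger NCX1, best known from heart muscle. The brighter of its 2 probes gave 8.58 ± 1.27 with NSD and 7.96 ± 1.22 with HSD, and the log2 fold change was 0.006, with a software error of 0.31. The dimmer probe, for another transcript of the gene, had 2.47 ± 0.958 and 1.88 ± 1.02, below that limit in both diets. Slc8a1 was near the limit of detection in both diets, and replicate spots at like signal had a spread of 0.45 for such a difference.

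Slc12a2, the gene of NKCC1, gave 42.1 ± 4.32 intensity units with NSD and 41.0 ± 4.20 with HSD. Its log2 fold change of 0.076 was smaller than its software error of 0.21 and than the spread of 0.21 between replicate spots. Its RefSeq upstream sequence is not printed.

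Wnk1 had 2 bright probes, designed to different transcripts of the gene. The brighter one gave 3271 ± 327 intensity units with NSD and 3279.99 ± 328 with HSD, a log2 fold change of 0.12. The other gave 2661 ± 266 and 2429.5 ± 243, a log2 fold change of −0.017. Both values were within the software error of 0.20, and the spread between replicate spots was 0.13 for each. The 2 probes thus gave like results, with no difference between the diets beyond the error of a spot. Without replicate pools this does not show that the level of Wnk1 was equal.

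**Figure D1:**
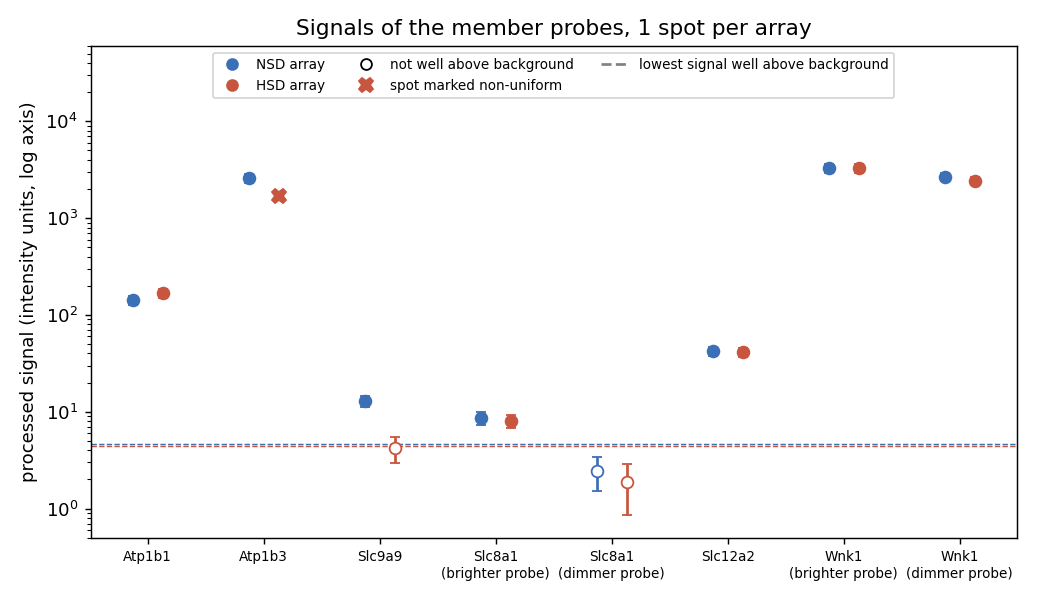
Processed signal (intensity units, log axis) of the 8 member probes for NSD (blue) and HSD (red), each a single spot with the error of the extraction software as bars. Open points were not well above background, the cross is the non-uniform Atp1b3 spot, and the dashed lines are the lowest signals well above background on each array. Slc9a9 lies at 12.8 and 4.24, on either side of these lines, and the Wnk1, Slc12a2 and brighter Slc8a1 probes lie at almost the same height on both arrays. Heights of different probes are not comparable.

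Across the 5 member genes with a fold change, the median was 0.076 on the log2 scale, with 4 genes above 0 and 1 below. Over all 16312 genes with a usable probe the median was 0.045. The direction of Slc8a1 was not settled, since it was above 0 in 6 of 10 ways of processing the arrays and below 0 in 4, and the dimmer Wnk1 probe was above 0 in 1 of 10. Atp1b1 lay between 0.31 and 0.36, Slc12a2 between 0.036 and 0.12 and the brighter Wnk1 probe between 0.023 and 0.12 throughout.

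**Figure D2:**
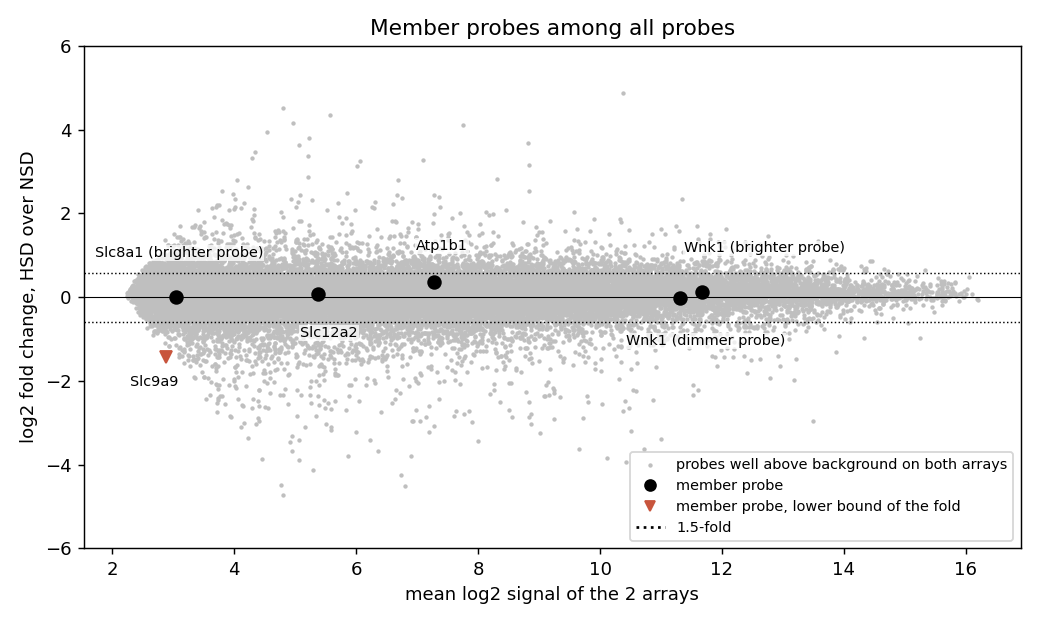
Log2 fold change (HSD over NSD) against the mean log2 signal of the 2 arrays, for all probes well above background on both arrays (grey) and for the 6 member probes with a value. The dotted lines mark 1.5-fold. Slc9a9, drawn as a triangle because −1.43 is a bound, lies at the dim end, and the other members lie between −0.017 and 0.36.

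**Figure D3:**
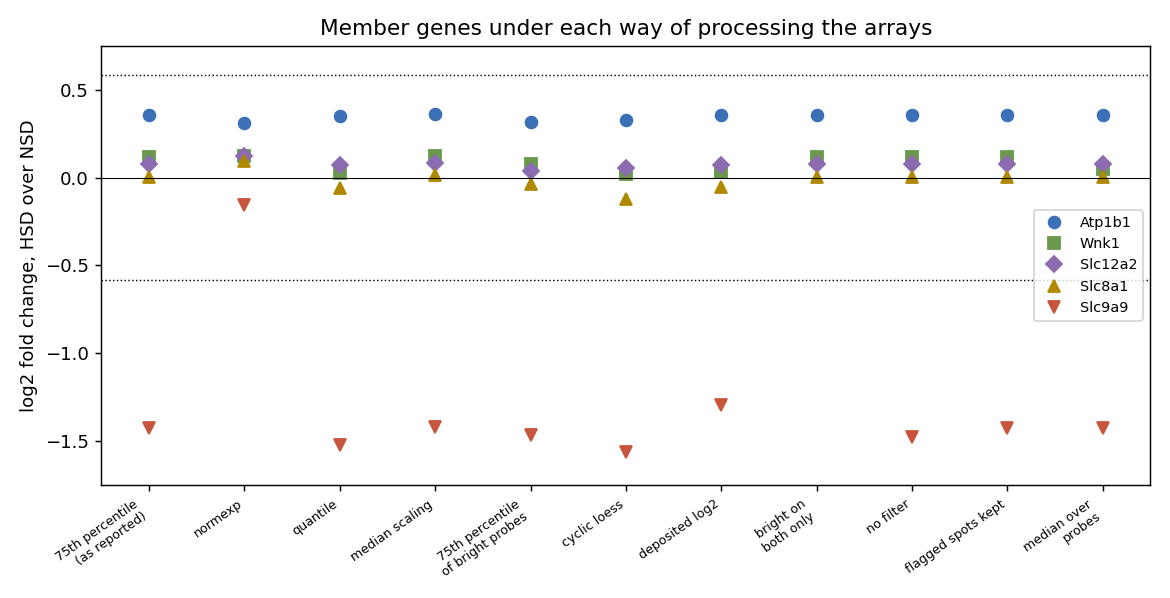
Log2 fold change (HSD over NSD) of the 5 member genes with a value under each way of processing the arrays. The dotted lines mark 1.5-fold. Slc9a9 lies between −1.56 and −1.30 except at −0.15 with normexp, and it has no point where probes must be well above background on both arrays. The other genes stay within 1.5-fold.

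The members belong to families that were read as 7 lists of 80 genes of ion transport, the members included. A fold change was available for 65 of them. By their brightest probe, 5 were higher with HSD by 1.5-fold or more, 6 were lower by as much, and 54 lay between. Over all genes, 9.86% were higher and 10.3% lower by 1.5-fold or more. Under cyclic loess the split was 3 higher and 11 lower, under quantile normalization 3 and 9, and with the 75th percentile of bright probes and in the deposited values 3 and 8. The share of higher values among all genes past 1.5-fold was 48.9%, and 38.5% under cyclic loess. The median over the 61 genes measured on both arrays was 0.066, and 0.044 over all 15209 such genes.

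Among 11 sodium pump subunits and FXYD regulators with a value, 1 was higher and 1 lower by 1.5-fold or more, with a median of 0.015. Fxyd2, the gamma subunit that tunes the pump and is best known in kidney, had signals of 159 with NSD and 1317 with HSD, a log2 fold change of 3.16 and the largest fold of the lists, 8.96. Its second probe gave 132 and 1559.5, a log2 fold change of 3.68, and the brightest probe stayed between 3.11 and 3.28 under every way of processing. Both Fxyd2 probes were single spots matched to the same transcript. Fxyd4, another regulator known from kidney collecting duct, had 29.4 and 16.6, a log2 fold change of −0.71, or −0.15 with normexp. Fxyd5, which also modulates cell adhesion, was the brightest gene of the list, with 11142 and 9062 and a log2 fold change of −0.18.

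Of 9 sodium-proton exchangers and partners with a value, 1 was higher and 1, Slc9a9, lower. Slc9a3r1, a scaffold protein that holds exchangers at the membrane, had 567 and 792, a log2 fold change of 0.60. It was past 1.5-fold in 5 of 10 ways of processing, which were median scaling and those that share the 75th percentile scaling of all probes. It fell short under quantile normalization, cyclic loess, the 75th percentile of bright probes, the deposited values and normexp, where it was 0.44. Chp1, a calcium-binding cofactor of the exchangers and the brightest gene of the list, had 12433 and 14337, a log2 fold change of 0.32. Of the other exchangers, none with a value was past 1.5-fold by its brightest probe. Slc9a7, an exchanger of the Golgi network, had 21.4 and 23.2 by its brightest probe, a log2 fold change of 0.23. Its dimmer probe, picked after its values were seen, was 1.71-fold higher with HSD, but its NSD signal was not well above background.

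None of the 7 sodium-calcium exchangers with a value was past 1.5-fold by its brightest probe. Slc8a3, the gene of NCX3, was the brightest, with 10781 and 10849.8 intensity units and a log2 fold change of 0.12. Neither array detected its other probe well above background, so the bright signal rests on 1 probe.

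Of 9 cation-chloride cotransporters, 3 were lower and none higher by 1.5-fold by their brightest probe, with a median of −0.40. Slc12a8 was 1.49-fold higher by its brightest probe and 2.61-fold higher by its other probe. Slc12a7, the potassium-chloride cotransporter KCC4, had 84.8 and 19.5, a log2 fold change of −2.01, and −0.83 with normexp. Slc12a1, the renal NKCC2, had 23.3 with NSD but no signal well above background with HSD. Taken against the lowest signal well above background, it was 4.91-fold lower with HSD. Its log2 fold change was −0.42 with normexp. Slc12a5 (KCC2, known from neurons) had 873 and 490.5, a log2 fold change of −0.72. Slc12a2 was the third highest of these 9 genes, which lay on both sides of 0.

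Of 10 genes of the WNK pathway with a value, 1 was higher and none lower, and the median was −0.001. Cul3, the scaffold of the ubiquitin ligase that removes WNK kinases, had 1362 and 1921, a log2 fold change of 0.61. It too was past 1.5-fold in 5 of 10 ways of processing, the same ones as for Slc9a3r1. It fell short in the others, with 0.46 under normexp. Sgk1, a kinase that responds to salt and steroid hormones, was the brightest, with 6769 and 6473. Its log2 fold change of 0.050 turned below 0 in 3 of 10 ways of processing. Stk39 and Oxsr1, which encode SPAK and OSR1 between WNK1 and NKCC1, had log2 fold changes of −0.18 and 0.18.

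None of the 8 calcium pumps was past 1.5-fold by its brightest probe. Atp2c1, the calcium and manganese pump of the Golgi, was the brightest, with 1319 and 1302, a log2 fold change of 0.095. In the last list, of bicarbonate, anion, phosphate and proton carriers, 2 of 11 were higher and 1 was lower. Scnn1a, the alpha subunit of the epithelial sodium channel ENaC, had 1654 and 2725, a log2 fold change of 0.83. The beta and gamma subunits, Scnn1b and Scnn1g, were not detected well above background in either diet. Slc4a8 had 10.1 and 15.1, a log2 fold change of 0.70, and 0.14 with normexp. Slc4a4 had 13.8 and 7.44, a log2 fold change of −0.77, and −0.17 with normexp, and both are bicarbonate carriers coupled to sodium. Hvcn1, the proton channel of phagocytes, was the brightest of the list, with 8774 and 10884 and a log2 fold change of 0.43.

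**Figure D4:**
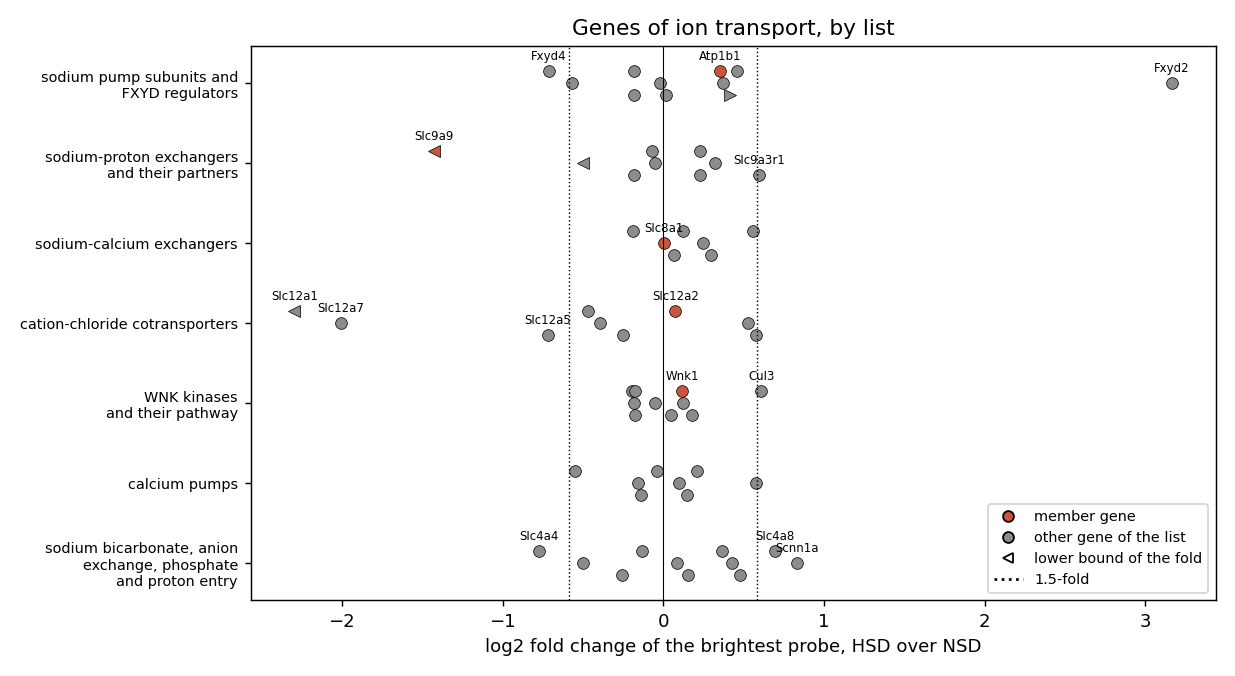
Log2 fold change (HSD over NSD, brightest probe) of the 65 genes with a value in the 7 lists. Red points are members, grey points other genes, triangles lower bounds of the fold, and dotted lines 1.5-fold. Fxyd2 stands at 3.16, Slc12a1 and Slc12a7 at −2.30 and −2.01, and 54 genes lie within 1.5-fold.

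The pools were also checked for their cell types. Itgam (CD11b) and Ly6c1 encode antigens that define M-MDSCs. By their brightest probes these genes had log2 fold changes of 0.09 and 0.018, at high signals on both arrays. Their other probes gave 0.47 and 0.073 for Itgam and −0.42 for Ly6c1. Of the 9 monocyte and M-MDSC markers with a value, Cd14 (0.82) and Cx3cr1 (0.78) were higher by 1.5-fold or more. Ccr2 (−0.78) and Fcgr1 (−3.68) were lower by as much, and 5 lay between. Fcgr1 had signals of 305 with NSD and 21.9 with HSD. All 9 neutrophil markers with a probe were well above background on both arrays, with NSD signals from 1643 to 61817, and none was past 1.5-fold by its brightest probe. How much RNA of the pools came from neutrophils was not measured, so the ion transport signals are those of the isolated pools as a whole. Of 8 macrophage markers with a value, 6 were lower with HSD by 1.5-fold or more and none was higher. Their summed signal was 14864 with NSD and 8807 with HSD, and Cd163 was not detected well above background in either diet. Of 10 platelet markers 5 were lower, with summed signals of 2079 and 954. Of 9 epithelial markers with a value 3 were higher and none lower by 1.5-fold or more. Of these 9, 6 were above 0, with a median log2 fold change of 0.18. The summed signals over the 10 listed genes were 288 and 259. Sums in this paragraph add probes whose heights are not comparable, so their direction can differ from that of most genes. Over all genes, 9.86% were higher and 10.3% lower by 1.5-fold or more. Of 8 dendritic cell markers with a value 1 was higher and 1 lower, and of 8 T and NK cell markers 1 was lower. Of 10 B cell markers 2 were higher, and none of 8 endothelial markers was past 1.5-fold. Of 7 fibroblast markers 1 was higher and 3 were lower, and of 7 erythroid markers 1 was lower. The part of these cells in the values of Slc9a9, Slc12a1 and Slc12a7, which were lower in the same array, and of Fxyd2 and Scnn1a, which were higher, was not tested. In such pools, fewer cells of a type and less RNA per cell cannot be told apart.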

How the data were processed

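Per the labels, RNA pooled from the M-MDSCs of each diet was labelled with Cy3 and hybridised to an Agilent mouse array. The authors deposited scanner intensity values per spot, extracted with Feature Extraction 11.0.1.1, and a table of log2 values per probe normalized, by the study's account, in GeneSpring GX, with no normalization setting given in the sources used here. The deposited log2 columns have the same median and upper quartile on both arrays. Both arrays came from the same slide and scan, and no spot was saturated.

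Here, control and outlier-flagged spots were left out, processed signals were averaged per probe, and log2 signals were taken relative to the 75th percentile of their array. A probe was well above background if at least 50% of its spots were. Where 1 array was below, the fold is a bound, taken against the lowest signal well above background or the probe's own signal if that was higher. Such a bound takes no account of the errors of the signals. Probes were named through RefSeq transcripts, which gave names to 27223 of 39413 probes. Genes were read by their brightest probe. The text names all 6 members, the brightest gene of each list and every gene at least 1.5-fold apart. A few genes of the lists are not reported here. The members and lists were chosen with earlier results of these data known. Limma 3.58.1 in R 4.3.3 gave the normexp, quantile and cyclic loess alternatives. The step that counts differences was tested on simulated data, with changes placed only in probes well above background on both arrays. Every probe was given the same noise there. That simulation therefore covered neither bounds such as that of Slc9a9 nor the larger spread at low signals. With 2 arrays, no test was possible, and their number sets the precision.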

Additional observations from a re-analysis of the deposited data

How the results depend on the processing

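No paired analysis was possible because each diet has 1 array and no replicate number. The count of member probes past 1.5-fold was 1, and it was 0 with normexp and 0 when probes had to be well above background on both arrays, since the HSD signal of Slc9a9 was dim. The count of ion transport genes past 1.5-fold was 11. It was 5 with normexp, 18 without a filter on dim probes and 4 with a 2-fold threshold, and between 9 and 14 under the other 8 alternatives. Normexp adds 50 to every signal and so shrinks the folds of dim probes by construction. The median over the members lay between 0.023 and 0.12, and the median over the ion transport genes between 0.003 and 0.089. Of 102 values of single member genes and probes under an alternative, 100 were within the software's error of the reported value. The other 2 were both Slc9a9 with normexp. These values overlap, since the brightest probe of a gene was counted as a gene and again as a probe. The 2 Slc9a9 values are thus the same −0.15. Alternatives that change only a filter on spots or probes also leave most of these values almost unchanged by construction, so the count is no measure of robustness. With 1 spot per probe and 1 pool per diet, the spread between animals was not measured. The errors given, by the software and from replicate spots of other probes, are errors within an array.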

Other observations

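Several of the listed ion transport genes had more than 1 probe. Of 32 such genes, 22 had at least 2 probes measured on both arrays, and for 14 of these all probes had a fold change of the same sign. The median spread between the probes of a gene was 0.20 on the log2 scale. The largest, 0.89, was that of Slc4a5, whose probes gave −0.50 and 0.39. Atp2a2, the calcium pump of the endoplasmic reticulum, had 0.15 by its brighter probe and −0.69 by the other. Slc12a8 had 0.58 by its brightest probe and 1.38 by the other, both at signals under 20. For Slc4a4 all 3 probes were lower in the HSD group, and for Fxyd2 both were higher.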
